A study of Mus musculus with 96 samples.

Results

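Hmgcs1, Sqle, Insig1, Fdft1, Cyp51, Dhcr7 and Lss are genes of cholesterol synthesis and its control, and they were taken here by their symbols as 7 of the 22422 genes counted in mouse neural tube. The label under which they were grouped also names uptake, but none of the 7 is an uptake gene. 6 encode enzymes of the synthesis pathway and Insig1 encodes a sterol sensor. Uptake is covered below by Lrp1 and related genes. For each gene the coding counts of 1 transcript were used, that with the highest total.

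Ribosome profiling, which sequences the mRNA fragments covered by ribosomes, and RNA-seq of fragmented poly(A) mRNA were applied to the neural tube of E11.5 embryos. Wild-type embryos (genotype C3HeB) were compared with C3HeB/Eif3cXs-J/+ embryos, heterozygous for the Xs-J allele of Eif3c. Eif3c encodes a subunit of eIF3, the complex that prepares the small ribosomal subunit for initiation, and the title of the series names its part in translating signalling mRNAs. Per the labels, the dissociated cells of 1 litter were divided between an RNA and a footprint library, and each genotype has 3 such pools in each assay. The labels do not say whether litters were of a single genotype, nor that the pools of a genotype come from separate litters, so the tests cover only the spread among the pools at hand.

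Coding counts came to 7.2 to 13.1M per RNA library. Footprint libraries of pools 1, 2 and 3 had 59.2, 17.3 and 32.8M in wild type and 11.3, 12.1 and 14.8M in the mutant. Every mutant footprint library was smaller than every wild-type one, and the part of depth in the footprint comparisons below was not tested. Values are in CPM, counts scaled to a common library size within each assay, given for pools 1, 2 and 3 in that order. The labels were checked with Eif3c itself, which had 518, 497 and 474 CPM of RNA in wild type and 296, 290 and 302 CPM in the mutant. Its RNA fell by 0.75 ± 0.06 on the log2 scale (SE, edgeR's quasi-likelihood test, Benjamini-Hochberg adjusted p = 6.15e-04), and its footprints fell by 0.98 ± 0.07 (edgeR adjusted p = 0.00131). Markers of neural progenitors summed to 3924 to 4661 CPM and those of neurons to 3057 to 3937 CPM in RNA, while 5 surface epithelium markers summed to at most 4.21 CPM, with Krt14 at 0. Liver markers (Alb, Afp, Apoa1 and Ttr), of the body's main cholesterol-making organ, summed to 1.17 to 15.8 CPM in wild-type RNA and to 42.1, 5.45 and 5.03 CPM in mutant RNA.

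Cholesterol is built from acetyl-CoA through mevalonate, which is joined stepwise into squalene, closed into the sterol rings and trimmed to cholesterol. The transcription factor SREBP-2 switches the pathway on when sterols are scarce. Its escort SCAP carries it from the endoplasmic reticulum to the Golgi for cleavage, and INSIG proteins hold the pair back when sterols are plentiful. Early embryonic neural tissue makes much of its own cholesterol, and the sterol is also attached to Hedgehog proteins, the signals that pattern the ventral neural tube.

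In order along the pathway, Hmgcs1 (chromosome 13, 119690379 to 119708260, + strand, mm10) encodes HMG-CoA synthase, an early enzyme of the mevalonate pathway. Fdft1 (chromosome 14, 63145150 to 63179578, - strand) encodes squalene synthase, the first step that leads only to sterols. Sqle (chromosome 15, 59315077 to 59331192, + strand) encodes squalene epoxidase, which adds the oxygen that becomes the sterol hydroxyl group. Lss (chromosome 10, 76531588 to 76557138, + strand) encodes lanosterol synthase, which closes the rings. Cyp51 (chromosome 5, 4081145 to 4104746, - strand) encodes the demethylase that acts on lanosterol. Dhcr7 (chromosome 7, 143823145 to 143848410, + strand) encodes the reductase of a final step, deficient in Smith-Lemli-Opitz syndrome. Insig1 (chromosome 5, 28071363 to 28078662, + strand) encodes the sensor that retains SCAP and is itself a target of SREBP. Their coding sequences run from 260 codons in Insig1 to 734 in Lss. Levels and differences between genotypes were counted over the coding sequence without its first 15 and last 5 codons, and the shares in untranslated regions over the whole transcript.

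Since eIF3 acts before the start codon is read, the sequence around each start codon is shown, in GENCODE transcripts and 5′ to 3′, with the start codon in capitals.
Hmgcs1: ctctttcaccATGcctggg
Fdft1: agtcgcaaggATGgagttc
Sqle: cttttgagccATGtggact
Lss: tagtgctgtcATGactgag
Cyp51: gacggtcgggATGgtactt
Dhcr7: tcagggcctgATGgcttcg
Insig1: ctggacgccgATGcccagg
A purine at the third base before the start and a G just after it favour recognition of a start codon in mammals. Fdft1 and Cyp51 have both, Hmgcs1, Sqle and Lss have the purine alone, Dhcr7 has the G alone and Insig1 has neither. Of 12949 tested genes with a 5′ UTR, 86.1% had the purine, 52.4% the G and 45.1% both. Each gene is shown by the transcript with the highest count over its whole length, which for Hmgcs1 and Dhcr7 is not the one used for coding counts. For Dhcr7 the annotated coding length was 1416 nt in the transcript shown and 1425 nt in the one counted. Whether these share a start codon was not tested. The 5′ UTRs of these transcripts were 119 nt long in Hmgcs1, 847 in Fdft1, 764 in Sqle, 54 in Lss, 439 in Cyp51, 507 in Dhcr7 and 75 in Insig1. Upstream ATG triplets numbered 8 in Fdft1, 7 in Dhcr7, 4 in Sqle and 1 in Insig1, and the other 3 had none.

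SREBP proteins bind sterol regulatory elements near the start site, next to sites of NF-Y and Sp1. RefSeq promoter windows (250 bases before to 50 after the start site, GRCm38.p6) were found for Hmgcs1, Insig1, Cyp51, Lss and Dhcr7, the last with 3 windows. The sterol regulatory element form TCACNCCAC, searched on both strands, occurred in 1.24% of all 32851 windows. Sqle and Fdft1 had no window and were not searched. Among the genes with a window, this form occurred in that of Hmgcs1, starting 137 bases before the start site. It is shown in capitals because it is the one match.
Hmgcs1, chr13:119690204-119690232, + strand: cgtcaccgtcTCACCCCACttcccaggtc
CCAAT, the NF-Y motif, was found 4 times in the Hmgcs1 window, 1 time each in those of Insig1, Cyp51 and Lss, and 2 times in the third window of Dhcr7, against 37.4% of all windows with at least 1. GGGCGG, the core of Sp1 sites, was in every one of these windows but the second of Dhcr7, against 35.7% of all windows. Matches of different motifs were counted separately, whether or not they overlapped. A match describes these letters only.

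All 7 genes were well expressed. Per kilobase of counted coding sequence, wild-type RNA had the order Hmgcs1 (558 ± 6.18 CPM per kb, SD, n = 3), Cyp51 (167 ± 8.69), Sqle (129 ± 3.71), Fdft1 (98.4 ± 0.555), Insig1 (81.3 ± 5.34), Dhcr7 (69.7 ± 3.18) and Lss (58.8 ± 4.6). Each gene lay above the next in all 3 wild-type RNA pools. In mutant RNA the order was the same, with Fdft1 and Insig1 overlapping. Hmgcs1 RNA was above 99.4% and Lss RNA above 77.4% of the genes tested.

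**Figure D1:**
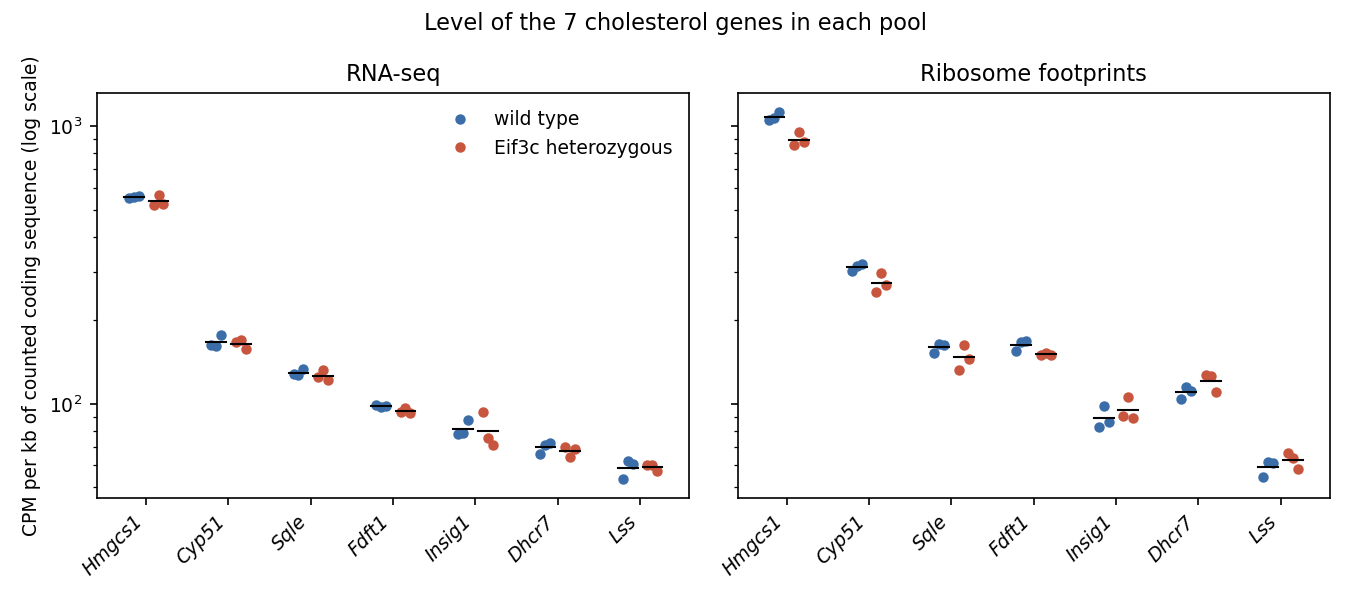
Level of each gene in CPM per kb of counted coding sequence (log axis) in RNA (left) and footprints (right); points are the 3 pools of a genotype and bars their mean. Hmgcs1 stands above the other genes in both assays, from 519 CPM per kb in RNA and from 857 CPM per kb in footprints.

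In footprints, wild-type Hmgcs1 had 1085 ± 39.1 CPM per kb and Cyp51 312 ± 8.58. Fdft1 (163 ± 7.18) and Sqle (160 ± 7.04) overlapped, while in RNA Sqle stood above Fdft1 in all 3 pools. Dhcr7 (110 ± 5.98) stood above Insig1 (88.9 ± 8.36), the reverse of their order in RNA, and Lss was lowest with 59.2 ± 4.07 CPM per kb.

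Footprints per mRNA in wild type separated the enzymes, since 5 of the 7 genes carried more footprints per mRNA than the average gene. The share of all 13877 tested genes that passed upwards was 35.5%, and 71.8% passed in either direction. The log2 ratio of footprints to RNA, relative to the average gene, was 1.06 ± 0.07 for Hmgcs1 (SE, edgeR adjusted p = 4.09e-09) and 1.00 ± 0.07 for Cyp51 (7.19e-09). It was 0.83 ± 0.06 for Fdft1 (7.10e-09), 0.75 ± 0.07 for Dhcr7 (2.35e-07) and 0.40 ± 0.07 for Sqle (edgeR adjusted p = 1.99e-04). Insig1 at 0.22 ± 0.10 (0.063) and Lss at 0.10 ± 0.07 (edgeR adjusted p = 0.223) did not pass. With the pool that RNA and footprints share as a block, Insig1 passed (0.23 ± 0.08, edgeR adjusted p = 0.0217). It also passed with no filter (0.0382), without mutant pool 1 (0.0296) and without mutant pool 2 (0.0286). Insig1 did not pass with DESeq2 (adjusted p = 0.083), with transcripts summed (edgeR adjusted p = 0.0605) or without mutant pool 3 (0.0576). Nor did it pass without wild-type pool 1 (0.113), pool 2 (0.42) or pool 3 (0.0704). Fdft1 and Cyp51, which have both favourable bases at the start codon, lay between Hmgcs1 and Dhcr7, which have 1 each in the transcripts shown. Sqle and Lss, with the purine alone, and Insig1, with neither base, lay lower than Dhcr7. A link between these bases and footprints per mRNA was not tested.

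The other synthesis genes mostly lay above the average gene too. Of 21 synthesis genes, 16 were above the average gene in footprints per mRNA, 3 below and 2 did not pass, with a median of 0.75 against 0.01 for all genes. Without the 6 members on that list, 11 of 15 were above and 3 below, with a median of 0.74. Those above included Msmo1 (1.20, a sterol methyl oxidase), Hsd17b7 (0.99), Nsdhl (0.98), Sc5d (0.86), Pmvk (0.79), Ebp (0.79), Lbr (0.74, a sterol reductase and nuclear envelope protein), Acat2 (0.61) and Mvd (0.46). Below were Mvk (-0.60, mevalonate kinase), Tm7sf2 (-0.58) and Fdps (-0.21), and Idi1 at -0.17 did not pass. Idi1, an isomerase of the mevalonate branch, had only 2.56 to 4.59 CPM in any library.

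Sterol sensing genes differed among themselves. Of 11, 2 were above the average gene and 5 below, with a median of -0.14. SCAP, which carries SREBP, had few footprints for its mRNA (Scap, -1.76), as did the first protease that cuts SREBP (Mbtps1, -1.64). Insig2 (-0.92), Srebf2 (-0.67, which encodes SREBP-2) and the ubiquitin ligase Rnf145 (-0.63) were also below, while Erlin2 (1.00) and the second protease Mbtps2 (0.47) were above. Insig1, Srebf1 (-0.14) and Erlin1 (0.17) were among those that did not pass. Among 21 uptake, transport, storage and efflux genes, 12 were above and 7 below (median 0.45). The lysosomal lipase Lipa (1.36), Soat1 (1.15, which esterifies cholesterol), Abcg1 (1.02), Npc1 (0.91), Npc2 (0.61), Stard4 (0.54), Abca1 (0.45), Apoe (0.45) and Lrp2 (0.35) were among those above. Below were the sterol-sensing nuclear receptors Nr1h2 (-2.59) and Nr1h3 (-1.89), Lrp8 (-1.13), Cyp46a1 (-1.07), Scarb1 (-0.71), Stard3 (-0.67) and Vldlr (-0.61).

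Fatty acid synthesis genes, which the related factor SREBP-1 controls, were above in 8 of 10, with a median of 0.60. They were Scd2 (0.94), Fads2 (0.88), Fads1 (0.83), Fasn (0.71), Elovl6 (0.61), Acly (0.60), Scd1 (0.59) and Acss2 (0.27), with Me1 below (-0.88). The 9 genes that use isoprenoids for other products had 4 above, Fntb (1.00), Dhdds (0.58), Pdss2 (0.34) and Fnta (0.21), and 4 below, Coq2 (-1.29), Ggps1 (-1.14), Nus1 (-0.71) and Pdss1 (-0.23), with a median of 0.16. Differences between these lists were not tested.

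In RNA none of the 7 genes differed between the genotypes. Of all 13406 genes tested, 52 passed, which is 0.388%. In bulk tissue, fewer cells of a type and less RNA per cell cannot be told apart. Hmgcs1 had 828, 839 and 847 CPM in wild type and 780, 854 and 792 CPM in the mutant. The mutant range enclosed the wild-type range, and the log2 difference was -0.05 ± 0.07. Cyp51 had 236, 235 and 257 CPM against 242, 247 and 230 CPM (-0.02 ± 0.06), also overlapping. Sqle had 212, 210 and 222 CPM against 207, 220 and 202 CPM (-0.03 ± 0.06).

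Fdft1 was the one member whose RNA groups did not overlap, with 118, 116 and 117 CPM in wild type and 111, 115 and 110 CPM in the mutant (-0.06 ± 0.06). Such separation was found for 22.2% of all genes tested, so 1 of 7 is not above the background. Lss had 115, 133 and 130 CPM against 129, 129 and 123 CPM (0.01 ± 0.07). Dhcr7 had 90.2, 96.9 and 98.3 CPM against 95.2, 88 and 93.7 CPM (-0.04 ± 0.07), and its groups overlapped. Insig1 varied most, with 56.1, 56.5 and 63 CPM against 67.3, 54.3 and 51.2 CPM (-0.02 ± 0.10), where mutant pool 1 was highest. The edgeR adjusted p of the 7 ran from 0.618 to 0.972, and all their 95% intervals lay between -0.24 and 0.21 on the log2 scale.

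Footprint differences lay on both sides of 0, from -0.27 to 0.14 on the log2 scale, and none of the 7 passed the threshold. Of 13423 genes, 34 passed (0.253%). Hmgcs1 footprints were 1585, 1610 and 1697 CPM in wild type and 1288, 1432 and 1324 CPM in the mutant, so that every mutant pool was below every wild-type pool. The log2 difference was -0.27 ± 0.07 (95% interval -0.44 to -0.11, edgeR p = 0.00372, adjusted p = 0.098). Cyp51 footprints were 439, 456 and 463 CPM against 370, 429 and 391 CPM, again without overlap (-0.19 ± 0.07, edgeR p = 0.0289, adjusted p = 0.174). Fdft1 footprints were 185, 199 and 200 CPM against 179, 182 and 178 CPM, without overlap (-0.11 ± 0.06, edgeR adjusted p = 0.31). The groups of 29.2% of all genes did not overlap in footprints, beside 3 of these 7. Hmgcs1 passed with DESeq2 (-0.27 ± 0.08, adjusted p = 0.012), and 839 of all genes did. Without mutant pool 2, the mutant pool highest for Hmgcs1 and Cyp51, Hmgcs1 (-0.33, edgeR adjusted p = 0.0144) and Cyp51 (-0.26, 0.0293) passed, and 2333 of all genes did.

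The other 4 genes overlapped between genotypes. Sqle footprints were 252, 274 and 270 CPM in wild type and 219, 270 and 240 CPM in the mutant (-0.12 ± 0.09). Without mutant pool 1 this difference was -0.05, and without mutant pool 2 it was -0.21 (edgeR adjusted p = 0.0735). Dhcr7 lay on the higher side, with 141, 158 and 151 CPM against 174, 172 and 151 CPM (0.14 ± 0.08). Lss had 117, 133 and 131 CPM against 142, 137 and 125 CPM (0.09 ± 0.08), and Insig1 had 59.3, 70.8 and 62 CPM against 65.3, 76.2 and 64.2 CPM (0.10 ± 0.10). The edgeR adjusted p of these 4 ran from 0.305 to 0.541.

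Footprints per mRNA were then compared between genotypes, by testing in all 12 libraries whether the genotype difference was the same in both assays (the interaction). No gene of 13877 passed with edgeR (0%), while 1366 had an unadjusted p under 0.05, 1 of them a member. With DESeq2 20 genes passed and with the shared pool as a block 113, and no member was among either. The log2 ratio of footprint to RNA CPM was 0.94, 0.94 and 1.00 for Hmgcs1 in wild type and 0.72, 0.75 and 0.74 in the mutant, with no overlap. Its interaction was -0.21 ± 0.09 (edgeR p = 0.0462, adjusted p = 0.5, and 0.163 with the block). Cyp51 had ratios of 0.89, 0.96 and 0.85 against 0.61, 0.80 and 0.76, also with no overlap (-0.16 ± 0.09, edgeR adjusted p = 0.609). The share of all genes without overlap was not counted for these ratios, so the separation has no background to be read against. Dhcr7 had ratios of 0.65, 0.70 and 0.62 against 0.87, 0.97 and 0.68, overlapping (0.20 ± 0.10, edgeR p = 0.0626, adjusted p = 0.532). The interactions of Insig1 (0.14 ± 0.15), Lss (0.09 ± 0.11), Fdft1 (-0.04 ± 0.08) and Sqle (-0.08 ± 0.11) had edgeR adjusted p from 0.799 to 0.919.

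**Figure D2:**
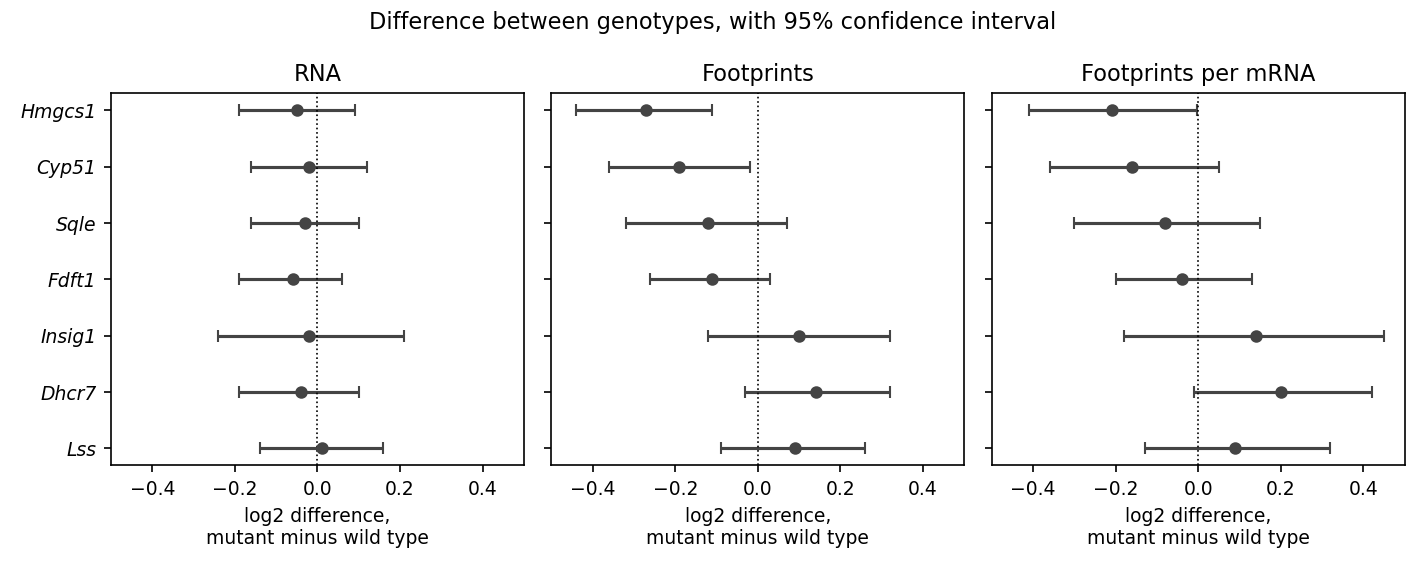
Log2 difference between mutant and wild type in RNA, footprints and footprints per mRNA for each gene (points), with the 95% confidence interval of edgeR's fit (bars). The RNA differences lie within 0.06 of 0, and the footprint differences run from -0.27 for Hmgcs1 to 0.14 for Dhcr7.

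The sign of the footprint difference followed the GC content of the coding sequence among the 7 genes. Cyp51 (46.8% GC), Hmgcs1 (47.1%), Sqle (48.1%) and Fdft1 (50.6%) had lower values in the mutant, and Dhcr7 (54%), Lss (55.4%) and Insig1 (58.1%) had higher ones. Over all genes, the median footprint difference ran from -0.12 in the quintile with the lowest GC to 0.17 in the quintile with the highest. In RNA the medians ran the other way, from 0.08 to -0.03. With offsets for coding GC, chosen after the data were seen, the footprint difference was -0.19 ± 0.06 for Hmgcs1 (edgeR adjusted p = 0.168) and -0.11 ± 0.06 for Cyp51 (0.381). The interaction with these offsets was -0.09 for Hmgcs1, -0.04 for Cyp51, 0.16 for Dhcr7 and 0.01 for Insig1. The part of GC content in these differences was not tested.

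**Figure D3:**
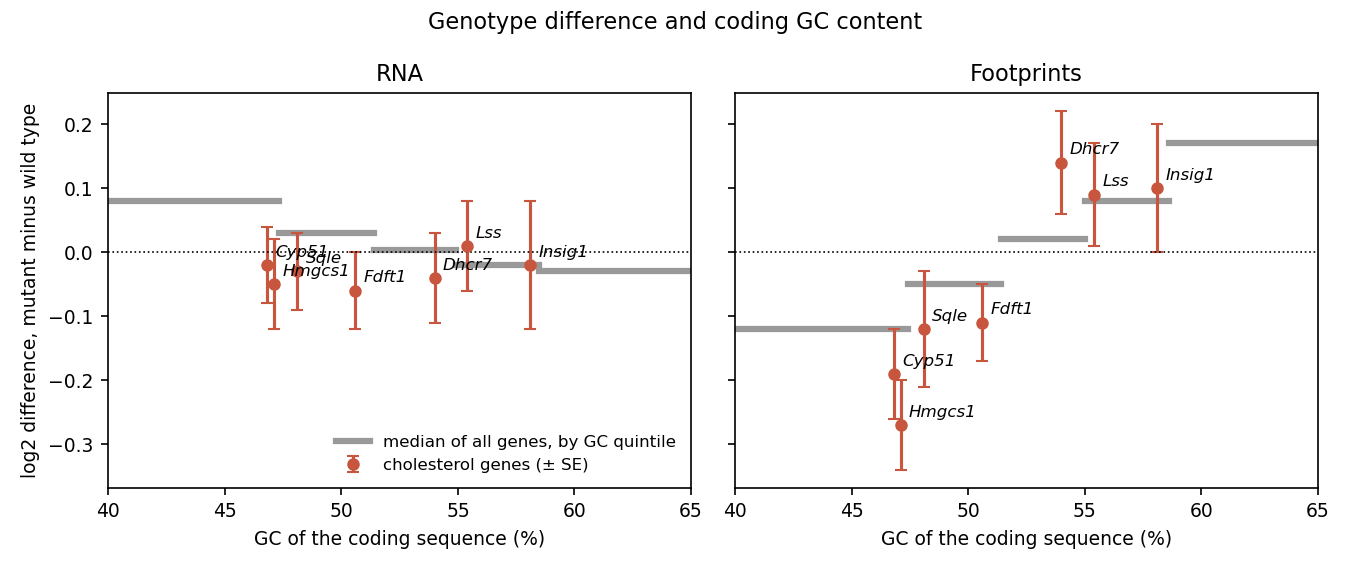
Log2 difference between genotypes against the GC content of the coding sequence, for RNA (left) and footprints (right); points are the 7 genes with their SE and grey bars the medians of all tested genes by GC quintile, with the outer quintiles drawn only from 40 to 65%. In footprints the 4 genes of lower GC lie below 0 and the 3 of higher GC above it.

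Other cell types differed between these libraries. Summed neuron markers were 3823 to 3937 CPM in wild-type RNA and 3057 to 3649 CPM in mutant RNA, and in footprints 6493 to 7047 against 5239 to 6207 CPM. Erythroid markers summed to 5004 CPM in RNA of mutant pool 1 and to 2219 to 2671 CPM in the other 5 RNA libraries. Their part in the differences of the 7 genes was not tested. Without mutant pool 1, the footprint difference was -0.24 for Hmgcs1 and -0.14 for Cyp51, and neither passed.

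Nor did the other pathway genes pass between genotypes. Of the 73 genes on the 5 lists, Ch25h was too low to test, and none of the others passed in RNA, in footprints or in footprints per mRNA. The 21 synthesis genes had median log2 differences of -0.02 in RNA and 0.04 in footprints, against 0.01 and 0.01 for all genes. Fdps, which makes farnesyl diphosphate, differed by -0.16 ± 0.08 in RNA and 0.04 ± 0.09 in footprints. Msmo1 differed by 0.08 ± 0.07 and -0.12 ± 0.08, and Idi1 by -0.03 ± 0.21 and 0.28 ± 0.20. The edgeR adjusted p of these 3 genes ran from 0.334 to 0.961 over both assays.

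Sensing genes had medians of -0.04 in RNA and 0.06 in footprints. Srebf2 had 541, 594 and 547 CPM of RNA against 522, 516 and 519 CPM, without overlap (-0.11 ± 0.06, edgeR adjusted p = 0.385), and a footprint difference of 0.06 ± 0.07. Srebf1 differed by -0.08 ± 0.07 in RNA and 0.20 ± 0.08 in footprints, and Scap by -0.07 ± 0.07 and 0.20 ± 0.09. Their interactions were both 0.29 (± 0.10 and ± 0.11, edgeR adjusted p = 0.432 and 0.438), above the list's median of 0.14. Insig2 differed by 0.07 ± 0.13 in RNA and -0.09 ± 0.19 in footprints, at 4.82 to 17.2 CPM.

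The multiligand receptor Lrp1 had the smallest p on the lists in RNA (-0.38 ± 0.08, edgeR adjusted p = 0.0581), followed by Lbr (0.29 ± 0.06, 0.0586), the reelin and lipoprotein receptor Lrp8 (-0.27 ± 0.08, 0.111) and the desaturase Scd2 (-0.19 ± 0.06, 0.132). Lrp1 passed with DESeq2, limma-voom and no filter, and Lbr with DESeq2 and no filter. Without mutant pool 2, Lrp1, Lbr, Lrp8 and Scd2 were among those that passed. Of all genes, 408 passed in RNA with DESeq2, 87 with limma-voom, 462 with no filter and 1528 without mutant pool 2. In footprints the smallest p outside the members were those of Lbr (0.27 ± 0.07, edgeR adjusted p = 0.108), Acss2 (0.23 ± 0.08, 0.134), Sc5d (-0.28 ± 0.10, 0.143) and the endocytic receptor Lrp2 (-0.24 ± 0.09, 0.152). Lbr passed with DESeq2, beside 839 of all genes. Without mutant pool 2 Lbr, Sc5d, Mbtps2 and Vldlr passed, beside 2333 of all genes. In footprints per mRNA they included those of Acat2 (0.25 ± 0.09), Coq2 (0.42 ± 0.16) and Nr1h2 (0.32 ± 0.14), with edgeR adjusted p from 0.432 to 0.482. The medians of the uptake list were -0.03 in RNA and 0.02 in footprints, those of fatty acid synthesis -0.08 and -0.05, and those of the isoprenoid branch 0.09 and 0.08.

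**Figure D4:**
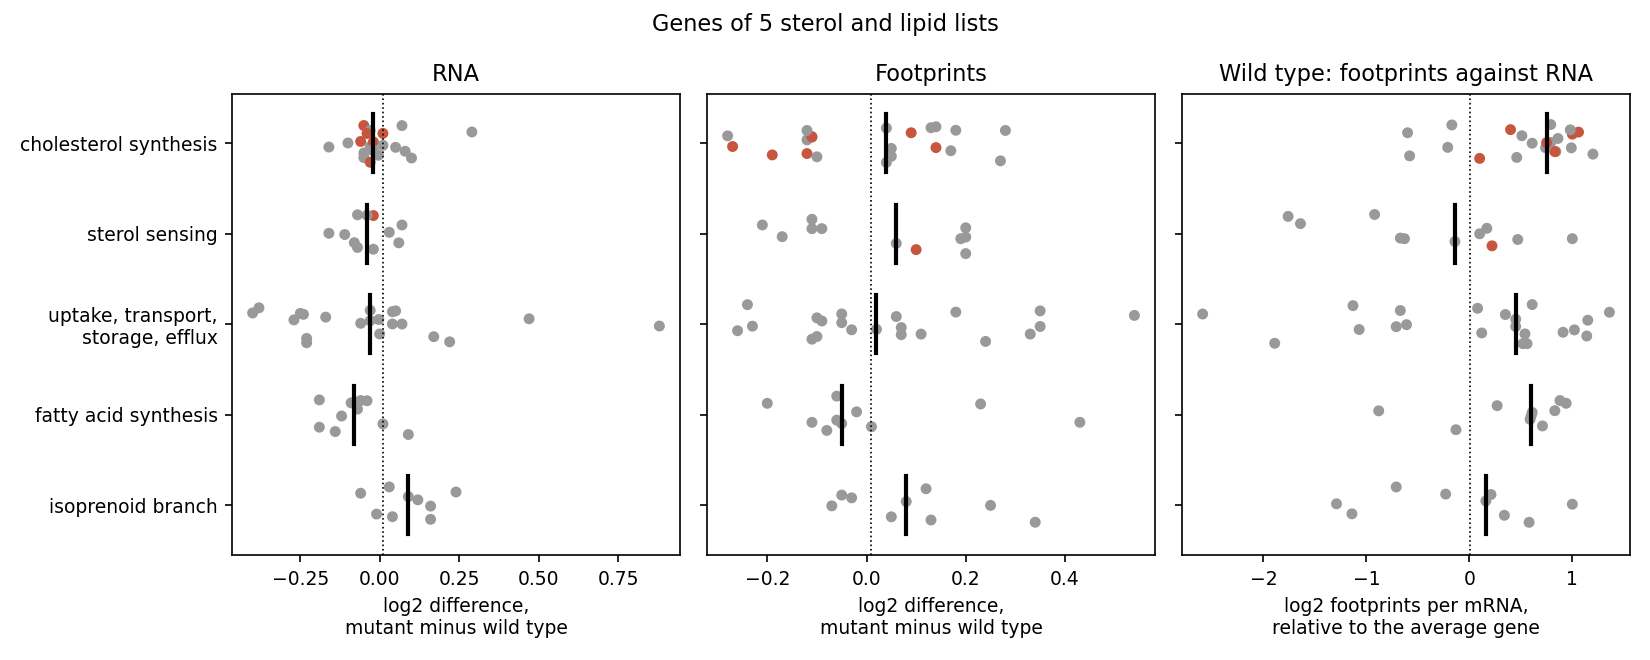
Genes of the 5 lists (points, the 7 cholesterol genes in red, black bars the list medians, dotted line the median of all genes) as log2 difference between genotypes in RNA and footprints, and as wild-type footprints per mRNA relative to the average gene. The list medians lie within 0.09 of 0 between genotypes, and run from -0.14 for sensing to 0.75 for synthesis in footprints per mRNA.

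Sqle had the largest share of footprints outside the coding sequence. Counts in the 5′ UTR made up 27.9, 27.1 and 27.6% of Sqle footprint counts in wild type, and 25.8, 24.7 and 24.5% of its RNA counts. A read across the start or the stop codon can be counted in 2 parts of a transcript, and reads at these codons were not counted apart. Taking all such reads from the 5′ UTR still left at least 26.1 ± 0.435% of Sqle footprints there (SD, n = 3). For Cyp51 this lower bound was 9.07 ± 0.46%, for Insig1 7.91 ± 0.52%, and for Hmgcs1, Fdft1, Dhcr7 and Lss from 0.19 to 1.48%. Per base, wild-type Sqle had 0.852 as many footprints in the 5′ UTR as in the coding sequence, near its RNA ratio of 0.846. The median of 11064 genes was 1.12 in footprints and 0.64 in RNA, so the per-base footprint ratio of Sqle was above that of 34.1% of genes. That of Fdft1 (0.101) and Dhcr7 (0.198), whose 5′ UTRs hold the most upstream ATG triplets, was above that of 2.39% and 4.56%. Their RNA ratios were low as well, with 0.166 for Fdft1 and 0.151 for Dhcr7, above those of 5.11% and 4.36% of genes. The ratios of these 2 genes may depend on which annotated 5′ UTR is used. Fdft1 had 3 coding transcripts and Dhcr7 had 8, and the ratios were not computed on another transcript.

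In the mutant, the 5′ UTR share of Sqle footprints was 32.4, 29.4 and 30.2%, above all wild-type pools. The difference was 3.1 percentage points (exact permutation test, 2-sided p = 0.1, the smallest that 3 against 3 pools allow). Hmgcs1 was separated as well, at 4.92, 5.02 and 5.54% against 6.01, 5.82 and 5.57% (exact permutation p = 0.1). With reads counted in 2 parts taken from the 5′ UTR, Sqle kept this separation (26.4, 25.6 and 26.2% against 31.1, 27.9 and 28.9%), while Hmgcs1 overlapped (1.45, 1.36 and 1.64% against 1.76, 1.61 and 1.22%). The other 5 genes overlapped, Cyp51 with 10.2, 11.6 and 10.2% against 15.2, 10.9 and 14.3%. Shares that did not overlap were found for 30.3% of 9261 genes, and for 26.9% with the mutant higher. The 2 of 7 genes are close to that background, and the median gene was 1.29 points higher in the mutant. In RNA the Sqle share was 25.1, 24.6 and 24.6% in the mutant and overlapped with wild type. Hmgcs1 was the one member whose RNA shares did not overlap (1.58 against 1.38% on average), beside 9.07% of 8775 genes, and its lower bound was 0% in all 6 RNA libraries.

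**Figure D5:**
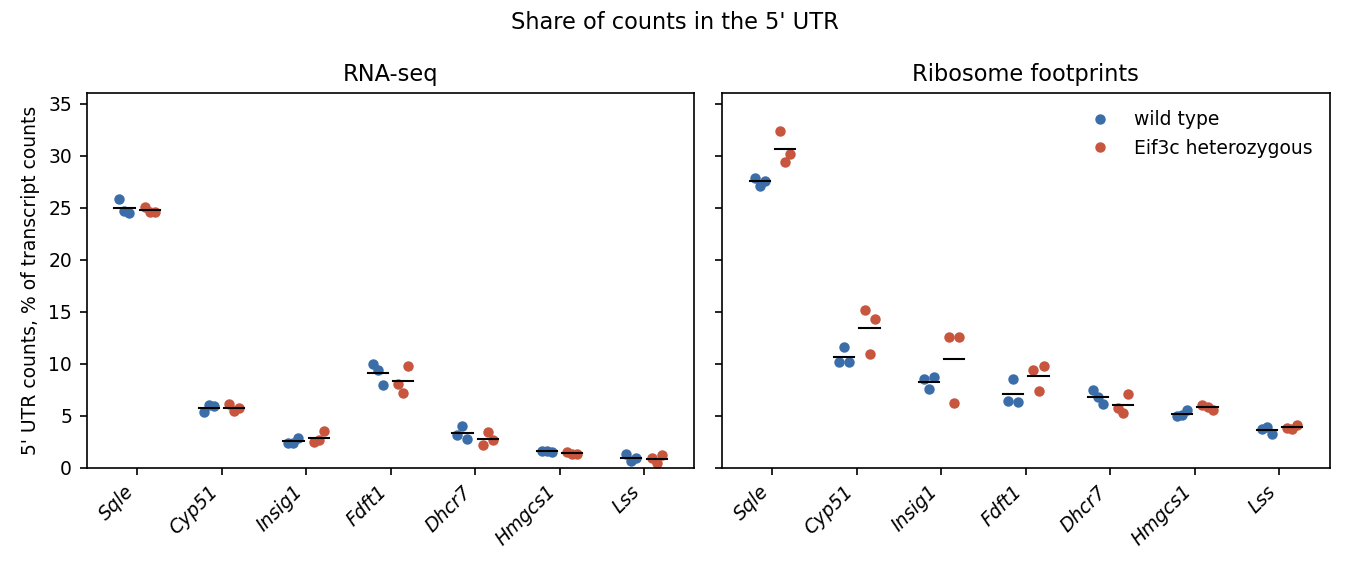
Counts in the 5′ UTR as a percentage of all counts of the transcript, in RNA (left) and footprints (right); points are the 3 pools of a genotype and bars their mean. Sqle lies from 27.1 to 32.4% in footprints, above the other 6 genes, whose highest value is 15.2% (Cyp51).

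The 3′ UTR held few footprints in the 7 genes, with wild-type means from 0.0306% of counts in Fdft1 to 1.2% in Hmgcs1. In wild-type RNA the means ran from 12.3% in Sqle to 56.8% in Insig1. In the mutant the mean footprint values were 0.0728% for Fdft1, 1.32% for Hmgcs1 and at most 1.44%, in Lss. Single values were higher in mutant footprint pool 2, with 2.56% for Lss and 2.25% for Insig1.

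Across pools the genes varied by small amounts, together in some libraries. Log2 levels centred within each assay were above 0 for all 7 genes in wild-type RNA pool 3 and in wild-type footprint pool 2. They were below 0 for all 7 in mutant footprint pool 3, and lay on both sides of 0 in every other library. The share of all genes above or below 0 in each library was not counted. The mean profile of the 7 genes ranged from -0.08 to 0.08 over the 12 libraries. The genes whose centred profile was most like that mean, of 10644 genes with at least 5 CPM in both assays, were Sptlc2 (Pearson r = 0.865), Snurf (0.855), Tmem59 (0.851), Abhd12 (0.844) and Castor2 (0.84). Sptlc2 encodes a subunit of the enzyme that starts sphingolipid synthesis. These values describe 12 libraries that share pools and differ in depth, and Snurf shares its locus and transcript with Snrpn.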

How the data were processed

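The authors deposited counts of reads per transcript part (5′ UTR, coding sequence, 3′ UTR) for 96 lane samples. Per the submitters' processing notes, cutadapt, STAR, bedtools and mm10 were used. Not given in the sources used here: versions, strandedness and the handling of multi-mapped reads. Coding counts exclude 15 codons at the start and 5 at the end. GENCODE vM21 held 121271 of the 122941 transcripts in the same version and 1522 in another; 0.32% of counts had no gene.

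Lanes and runs were summed per library, as technical repeats. The 4 lanes of mutant footprint pool 1 from run 1, with counts on at most 3 of 20 chromosomes, were left out. Each gene is represented by the transcript with the highest coding total; for UTR shares, by that with the highest whole-transcript total. Promoters are RefSeq windows (GRCm38.p6).

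Tests used edgeR 4.0.16 in R 4.3.3 (TMM, filterByExpr with minimum count 10 and minimum total 15, quasi-likelihood, Benjamini-Hochberg over all genes tested, threshold 0.05), with DESeq2 1.42.0 and limma 3.58.1 as alternatives. All 7 genes passed the filter. SE are back-calculated from the F statistic. Ratios per pool used a prior of 0.5 CPM. Libraries of 1 group differed by more than sampling noise. Tests were tried on simulated data. RNA and footprint libraries of a pool come from the same cells, per the labels' protocols, and their deviations correlated at 0.21, 0.225 and 0.321 in wild type and 0.574, 0.495 and 0.275 in the mutant for pools 1, 2 and 3.

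The genes and lists were chosen with earlier results of these data known. Named were the 7 genes, Eif3c, 10 fixed pathway genes, listed genes with adjusted p under 0.05, the 4 further listed genes with the smallest p in each comparison, and the 5 most similar profiles. Some genes that this rule names are not reported here, though list counts and medians include them.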

Additional observations from a re-analysis of the deposited data

How the results depend on the processing

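None of the 7 genes passed in RNA or in footprints per mRNA between genotypes under any alternative run. In footprints 1 passed with DESeq2 (Hmgcs1) and from 0 to 2 passed when 1 pool was left out, 2 without mutant pool 2. In wild-type footprints per mRNA 5 or 6 passed under every alternative run. The labels do not say what the replicate number shared by the genotypes marks. Deviations of same-numbered pools correlated at 0.115, 0.0563 and 0.0758 in RNA, where other pairs ran from -0.0946 to 0.0125. In footprints they correlated at -0.0914, -0.103 and -0.042, where other pairs ran from -0.048 to 0.125. Whether the number pairs the genotypes was not tested. With that number as a replicate block, 0 of the 7 genes passed in RNA and 0 in footprints, with 196 and 38 of all genes. With this block 1 listed gene (Lrp1) passed in RNA. With the shared pool as a block, 0 passed in translational efficiency and 6 in wild-type footprints per mRNA, the added one being Insig1, and no other call on the 7 genes changed.

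Signs turned where values were near 0. In RNA, Insig1 was 0.02 with GC offsets, 0.01 with GC offsets and the block, and ran from -0.15 to 0.05 with 1 pool left out, above 0 when that was wild-type pool 3 (0.03), mutant pool 2 (0.02) or mutant pool 3 (0.05). In the same way Cyp51 ran from -0.05 to 0.02 (0.02 lacking wild-type pool 3, 0.00075 lacking mutant pool 3), and Lss from -0.06 to 0.04 (-0.06, -0.0035 and -0.01 lacking wild-type pool 1, mutant pool 1 and mutant pool 2). The interaction of Sqle was 0.01 with GC offsets, with and without the block. With the 4 incomplete lanes added, the footprint difference of Lss was 0.50 ± 0.27.

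Counts over all genes moved more. The 52 in RNA were 408 with DESeq2, 87 with limma-voom, 462 with no filter, 1 with transcripts summed, 22 with whole coding sequences, 2 with GC offsets, and 1 to 1528 with 1 pool left out. The 34 in footprints were 839, 130, 243, 22, 59 and 26 in that order, 9 with all lanes, and 8 to 2333 with 1 pool left out. With GC offsets and the block they were 2 and 9, and 3 in translational efficiency, where 0 genes became 20 with DESeq2, 113 with the shared pool as a block and 1 without mutant pool 2 or mutant pool 3. The cause was not tested. Of the listed genes, 62 passed in wild-type footprints per mRNA, and 55 to 64 under the alternatives. The SE of the 7 genes, 0.06 to 0.10 in RNA and in footprints and 0.08 to 0.15 in the interaction, set what 3 pools a genotype can resolve.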
